A study of Gallus gallus with 2 samples.

Results

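Total RNA, depleted of ribosomal RNA, was sequenced from 6C2 cells, chicken erythrocyte precursors that grow as a transformed line, in 2 samples, called replicate 1 and replicate 2. The labels give 1 group, with no treatment: cycling cells of this erythroleukemia line, held at the erythroid colony-forming unit stage. The genes described here serve antigen presentation but lie outside chromosome 16, the chicken chromosome that carries the MHC. They were chosen by symbol, from 10 symbols, and 9 of these had a row among the 16464 genes analysed: B2M, PDIA3, ERAP1, TAPBPL, NLRC5, IFI30, CTSS, II and CIITA. CALR was not analysed here. With 1 group there is no contrast between conditions, and nothing in the labels tells if 2 cultures were used. The SDs below may therefore hold technical spread alone.

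MHC class I molecules show peptides from inside the cell to T cells, and class II molecules show peptides taken up from outside. A class I molecule is a heavy chain bound to the light chain made from B2M, and it is loaded with peptide in the endoplasmic reticulum, where chaperones and a trimming peptidase act. A class II molecule travels to endosomes with the invariant chain, made from II (CD74 in mammals), which proteases then cut away. Class I is found on most nucleated cells, bird red cells included, whereas class II is largely kept to professional antigen-presenting cells such as B cells, macrophages and dendritic cells.

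Among the genes chosen, those of class I spanned high to low levels and those of class II were low apart from IFI30. Levels are given as RPKM, reads scaled by the length of the gene model and by the size of the library. A gene counts as detected where neither sample falls under an RPKM of 1. By this rule 8 of the 9 genes were detected, against 52.6% of all analysed genes and 61.1% of the 12238 named genes whose models span 200 bp or more and that were neither small RNAs nor mitochondrial. CIITA was the gene that was not detected. At an RPKM of at least 5 the count was 5 of 9, with 39.5% of all genes, and at 100 it was 2 of 9, with 4.84% of all genes. The median of the 9 genes was 7.67 in replicate 1 and 7.54 in replicate 2, and that of all analysed genes was 1.66 and 2.0. On the log2(RPKM + 1) scale the median of the 9 genes stood 1.61 above that of all analysed genes, and 0.66 above that of the named genes of at least 200 bp.

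The table held 40064443 reads for replicate 1 and 30668939 for replicate 2, of which small RNAs took 33.0% and 34.5%. The 9 genes together held 30706 and 26258 reads, or 0.0766% and 0.0856%. B2M and PDIA3 supplied 82.6% and 80.3% of these reads. The marker lists were written with earlier results of these data known, so counts over them are description only. Of the markers listed for the labelled cell type, 12 of 12 erythroid ones were detected, led in RPKM by FTH1, HBAA, TFRC and BPGM. Beside these counts stand 52.6% of all analysed genes and 61.1% of named genes of at least 200 bp. How specific each marker is to erythroid cells was not tested. Of the 8 measured B cell markers and the 8 macrophage markers 0 were detected, and of the 8 T cell markers 1 was, CD3E.

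B2M, the light chain shared by class I molecules, was the highest of the 9 genes. It stood at 304.98 RPKM in replicate 1 and 331.12 in replicate 2, from 12838 and 10672 reads. Both samples were high and near each other, with a mean of 318 ± 18.5 (SD, n = 2), and 1.23% of the named genes of at least 200 bp lay higher. The exact Poisson 95% interval, which covers counting error only, ran between 299.7 and 310.3 in replicate 1 and between 324.9 and 337.5 in replicate 2. These intervals did not overlap in deposited RPKM. With TMM scaling between the libraries the log2 difference of -0.12 for replicate 1 over replicate 2 came to -0.01, within its counting error of 0.019 (SE), and with median-of-ratios scaling to -0.03. The gene lies on chromosome 10, 699804 to 702858, plus strand, with a model of 1060 bp (ENSGALG00000002160). Coordinates are as deposited, with no genome build named by the labels or the file header.

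PDIA3, the disulfide isomerase ERp57 that helps fold class I heavy chains in the peptide-loading complex, came next. It stood at 169.22 and 183.70 RPKM, from 12533 and 10417 reads, with a mean of 176 ± 10.2. It too was high in both samples, and 2.14% of the named genes lay higher. B2M was 1.80 times PDIA3 in replicate 1, with a 95% interval for counting error of 1.76 to 1.85, and 1.80 times in replicate 2, with 1.75 to 1.85. PDIA3 lies on the same chromosome as B2M, 22286278 to 22295652 on the minus strand, with 21.58 Mb between them and a model of 1865 bp (ENSGALG00000008348).

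ERAP1, which trims peptides in the endoplasmic reticulum to the length that class I molecules bind in human and mouse cells, was in the middle of the range. It stood at 7.67 and 7.54 RPKM, from 898 and 676 reads, and averaged 7.61 ± 0.0919. The samples lay within counting error of each other, and 41.8% of the named genes lay higher. The gene is on chromosome Z, 55885795 to 55898916, plus strand (ENSGALG00000014684).

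TAPBPL, the tapasin-related peptide editor TAPBPR of human cells, was the lowest of the 5 class I genes chosen. It stood at 2.18 and 2.82 RPKM, from 328 and 324 reads, and averaged 2.50 ± 0.453. Both samples were low but detected, and 56.0% of the named genes lay higher. The counting intervals, 1.95 to 2.43 and 2.52 to 3.14, did not overlap in deposited RPKM. The gene is on chromosome 1, 80009262 to 80018519, plus strand (ENSGALG00000014428).

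NLRC5 and CIITA, related NLR proteins that switch on class I genes and class II genes in human and mouse cells, stood far apart. NLRC5 was at 17.71 and 24.04 RPKM, from 3553 and 3693 reads, with a mean of 20.9 ± 4.48. Its counting intervals, 17.1 to 18.3 and 23.3 to 24.8, did not overlap in deposited RPKM. With TMM scaling its log2 difference of -0.44 for replicate 1 over replicate 2 came to -0.34, still beyond its counting error of 0.034 (SE). CIITA had 5 and 8 reads, or 0.06 and 0.12 RPKM, with counting intervals of 0.0180 to 0.129 and 0.050 to 0.228. NLRC5 was in the upper part of the range in both samples, and CIITA was near 0 in both. NLRC5 was 295 times CIITA in replicate 1, with a counting interval of 137 to 984, and 200.3 times in replicate 2, with 105.2 to 481. The wide intervals come from the few CIITA reads. NLRC5 lies on chromosome 11, 621658 to 649073, plus strand (ENSGALG00000001256), and CIITA on chromosome 14, 9290165 to 9298267, minus strand (ENSGALG00000007171).

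IFI30, the thiol reductase GILT that opens disulfide bonds of antigens in lysosomes, was the highest of the 4 class II genes chosen. It stood at 17.80 and 21.62 RPKM, from 400 and 372 reads on a short model of 566 bp, and averaged 19.7 ± 2.70. Its level could not be told from that of NLRC5, since the sample values interleaved and NLRC5 was 0.995 and 1.11 times IFI30. The gene is on chromosome 28, 3548767 to 3549790, minus strand (ENSGALG00000003389).

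CTSS, the protease that cuts the invariant chain in antigen-presenting cells of mammals, was close to the detection threshold. It stood at 1.81 and 1.15 RPKM, from 82 and 40 reads, with counting intervals of 1.44 to 2.24 and 0.822 to 1.57. Replicate 1 was the higher, and the intervals overlapped. IFI30 was 9.83 times CTSS in replicate 1 and 18.8 times in replicate 2, and the counting intervals of these ratios, 7.75 to 12.7 and 13.5 to 26.7, did not overlap. The gene is on chromosome 25, 1787224 to 1789851, minus strand (ENSGALG00000000775).

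II, the invariant chain itself, was at the threshold. It stood at 1.07 and 1.14 RPKM, from 69 and 56 reads, with counting intervals of 0.834 to 1.36 and 0.858 to 1.48. Both intervals reached under 1, so at this depth the gene could not be placed above or below the threshold. B2M was 285 times II in replicate 1 and 290.5 times in replicate 2. CTSS was 1.69 times II in replicate 1, with a counting interval of 1.21 to 2.36, and 1.009 times in replicate 2, with 0.658 to 1.55. The order of CTSS and II was therefore not settled, nor was that of TAPBPL and CTSS, whose counting intervals overlapped in replicate 1. Each of the other steps in the order was larger than the spread between the samples except that of NLRC5 and IFI30: B2M, PDIA3, the pair NLRC5 and IFI30, ERAP1, then TAPBPL, CTSS and II, and last CIITA. The gene II is on chromosome 13, 13225790 to 13229610, plus strand (ENSGALG00000004594).

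**Figure D1:**
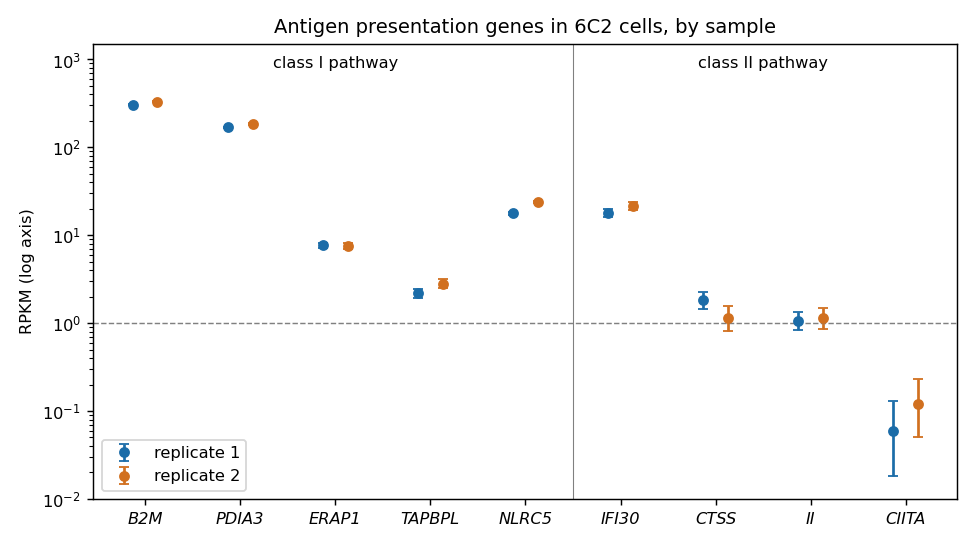
RPKM (log axis) of the 9 genes in replicate 1 and replicate 2, with bars for the exact Poisson 95% interval of each read count; the dashed line marks an RPKM of 1. B2M and PDIA3 stand above 100 in both samples, CTSS and II lie around 1, and CIITA lies under 0.2.

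Summed over the 5 class I genes the level was 502 RPKM in replicate 1 and 549 in replicate 2, and over the 4 class II genes 20.7 and 24.0. The class I sum rested on B2M and PDIA3, and the class II sum on IFI30. The medians were 17.7 and 24.0 for class I genes and 1.44 and 1.15 for class II genes. The ranges of the class I and class II genes overlapped, with means of 2.50 to 318 and 0.09 to 19.7, and no test was made between them.

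**Figure D2:**
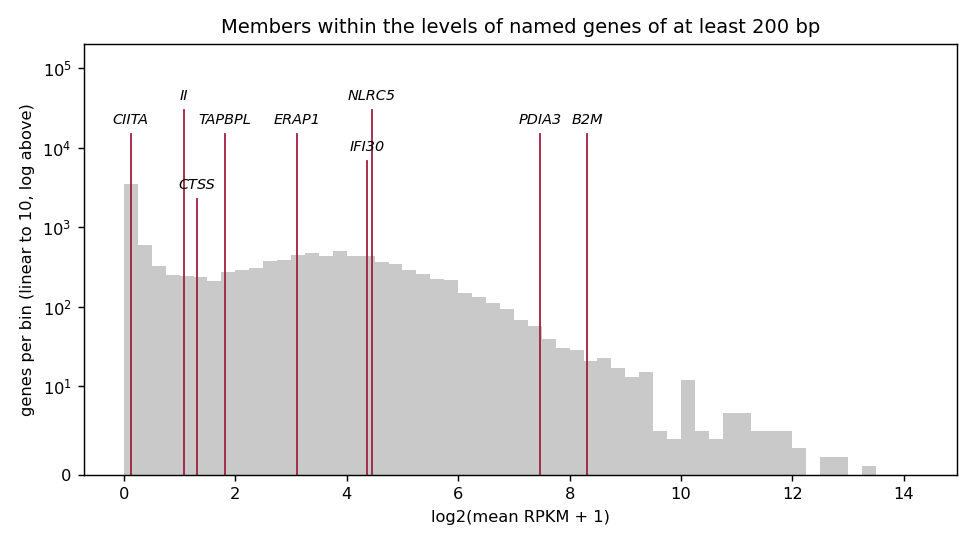
Histogram of log2(mean RPKM + 1) over 12238 named genes of at least 200 bp (grey; count axis linear to 10 and log above), with a line at each of the 9 genes. B2M and PDIA3 lie in the upper tail, CIITA lies in the lowest bin, and the other 6 lie across the body of the distribution.

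PDIA3 was high, as were some chaperones of the endoplasmic reticulum. A list of such chaperones and other genes of that compartment, translocon subunits among them, had 17 of 17 measured genes detected. Its median was 67.8 RPKM, with means from 9.155 to 558. Beside the counts of this list and those below stand the 52.6% of all analysed genes that were detected. For named genes of at least 200 bp, neither small RNAs nor mitochondrial, the share was 61.1%. The chaperone HSPA5 (BiP) led with 558 ± 14.4, followed by the isomerase P4HB with 396 ± 18.5, the translocon subunit SEC61G with 286 ± 39.0 and the chaperone HSP90B1 with 178 ± 11.8. PDIA3 stood at 0.316 ± 0.0102 of HSPA5 and at 0.446 ± 0.0467 of P4HB. It was 2.31 times CANX, the gene of the lectin chaperone calnexin, which binds newly made class I heavy chains. Among the isomerases named PDIA, PDIA3 was the highest, above PDIA4 at 122 ± 3.32, PDIA6 at 67.8 ± 7.74 and PDIA5 at 13.8 ± 0.849.

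Genes that cut proteins into peptides or trim them were detected for 9 of 9 measured members, with a median of 27.3 RPKM. The cytosolic hydrolase BLMH led with 114 ± 4.25, followed by NRD1 with 56.6 ± 4.31 and the proteasome activators PSME4 with 32.2 ± 2.28 and PSME3 with 29.1 ± 0.191. ERAP1 lay below all 9. It stood at 0.475 of LNPEP in replicate 1 and 0.426 in replicate 2, where LNPEP is the related endosomal aminopeptidase and lay at 16.14 and 17.72.

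Proteases and other genes of endosomes and lysosomes were detected for 13 of 15 measured members, with a median of 55.7 RPKM. The vesicle GTPase RAB7A led with 204 ± 25.2, followed by the protease CTSB with 116 ± 4.99, SPPL2A, which cleaves the last fragment of the invariant chain in mouse, with 82.0 ± 4.25, and the protease CTSZ with 78.1 ± 12.95. CTSS stood at 0.0161 of CTSB in replicate 1 and 0.00964 in replicate 2. Of the cathepsins measured, CTSA, CTSB, CTSC, CTSD, CTSH and CTSZ averaged 10.8 to 116 RPKM. CTSS and CTSL2 were the low ones, CTSL2 with 0.77 and 1.20. LAMP3, a marker of mature dendritic cells in human, stood at 0.26 and 0.33.

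Genes listed for the transcription of MHC genes were detected for 12 of 12 measured members, with a median of 12.7 RPKM. The list holds factors that act on MHC promoters together with CIITA and NLRC5, and also other regulators. The subunits of NF-Y stood at 48.8 ± 1.86 for NFYC, 25.7 ± 0.544 for NFYA and 18.1 ± 2.18 for NFYB. The subunits of the RFX complex, which binds the X box of class II and class I promoters, stood at 14.9 ± 0.799 for RFXANK, 7.61 ± 1.10 for RFX5 and 4.52 ± 0.248 for RFXAP. IRF2, a regulator of interferon-responsive genes, stood at 35.0 ± 0.346, and EZH2, the Polycomb methyltransferase, at 19.6 ± 0.622. Transcripts of the NF-Y and RFX subunits were thus detected in both samples, beside CIITA at 0.06 and 0.12.

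The receptor and kinase genes of interferon gamma, the cytokine that induces NLRC5 and CIITA in mammals, were detected, and 7 of 9 measured members of that list passed. IFNGR1 led with 76.8 ± 6.05, followed by JAK1 with 52.6 ± 6.20, the inhibitor SOCS1 with 38.1 ± 5.96 and IFNGR2 with 18.8 ± 0.247. IFNG itself had 2 and 1 reads, and IRF1, a transcription factor induced by interferon gamma, stood at 0.94 and 0.99. The other genes of the list were detected, with IRF8 at 9.13 and 11.37, JAK2 at 13.18 and 19.5 and SOCS3 at 3.38 and 2.95.

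Among genes of the NLR family and the related APAF1, 3 of 5 were detected, a share near the 61.1% of named genes. NLRC5 stood at 0.517 of the sensor NOD1 in replicate 1 and 0.686 in replicate 2, NOD1 being at 34.26 and 35.03. APAF1, the core of the apoptosome, stood at 4.71 and 4.53, and the inflammasome sensor NLRP3 at 2.03 and 2.67. NLRX1 stood at 0.64 and 1.21, and NLRC3 was near 0 with 4 and 2 reads.

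The partners on chromosome 16 were lower than B2M and PDIA3. The class I heavy chain genes BF2 and B-F summed to 41.0 RPKM in replicate 1 and 39.4 in replicate 2, and B2M was 7.44 and 8.41 times this sum. How reads that match both genes were counted is not stated, so the split and the sum are both uncertain. NLRC5 was 0.784 and 1.10 times BF2 in the 2 samples, and 32.2 and 28.3 times the peptide transporter gene TAP1, which stood at 0.55 and 0.85. TAPBPL stood at 0.692 and 0.817 of the other transporter gene, TAP2, which lay at 3.15 and 3.45. Among class II genes there, DMA, which helps load class II molecules, stood at 1.74 and 2.0, DMB2 at 0.46 and 0.84, and BLB1, which encodes a beta chain, had 2 reads per sample. The class I-like gene YFV stood at 0.16 and 0.21. In this list 4 of 8 measured genes were detected, beside 52.6% of all analysed genes and 61.1% of named genes.

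Surface genes of antigen-presenting cells were detected for 5 of 7 measured members, beside 61.1% of named genes. Their levels were low, with a median of 3.66 RPKM. The chemokine receptor gene CCR7 led with 6.07 ± 0.219, followed by the uptake receptor gene LY75 with 5.91 ± 0.728, ZBTB46, a transcription factor of dendritic cells placed in this list, with 5.47 ± 0.700, and the costimulator CD80 with 3.66 ± 0.0566. CD86 had 2 reads in each sample, and FLT3 stood at 0.37 and 0.26. Summed RPKM was 0.93 in replicate 1 and 0.91 in replicate 2 over the 8 B cell markers, and 0.99 and 1.16 over the 8 macrophage markers. II alone, at 1.07 and 1.14, was near either sum. From which cells the reads of II came was not tested. The B cell markers CD79B and BLNK stood at 0.03 and 0.04 and at 0.24 and 0.15, and the macrophage markers CSF1R and CD14 at 0.05 and 0.09 and at 0.05 and 0.07. The 8 T cell markers summed to 3.45 and 4.16, most of it from CD3E at 2.42 and 2.91, with CD3D at 0.57 and 0.78 and CD4 at 0.09 and 0.07. None of these markers was at 0 in both samples. In RNA of a whole culture, fewer cells that express a gene and less RNA per cell cannot be told apart.

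**Figure D3:**
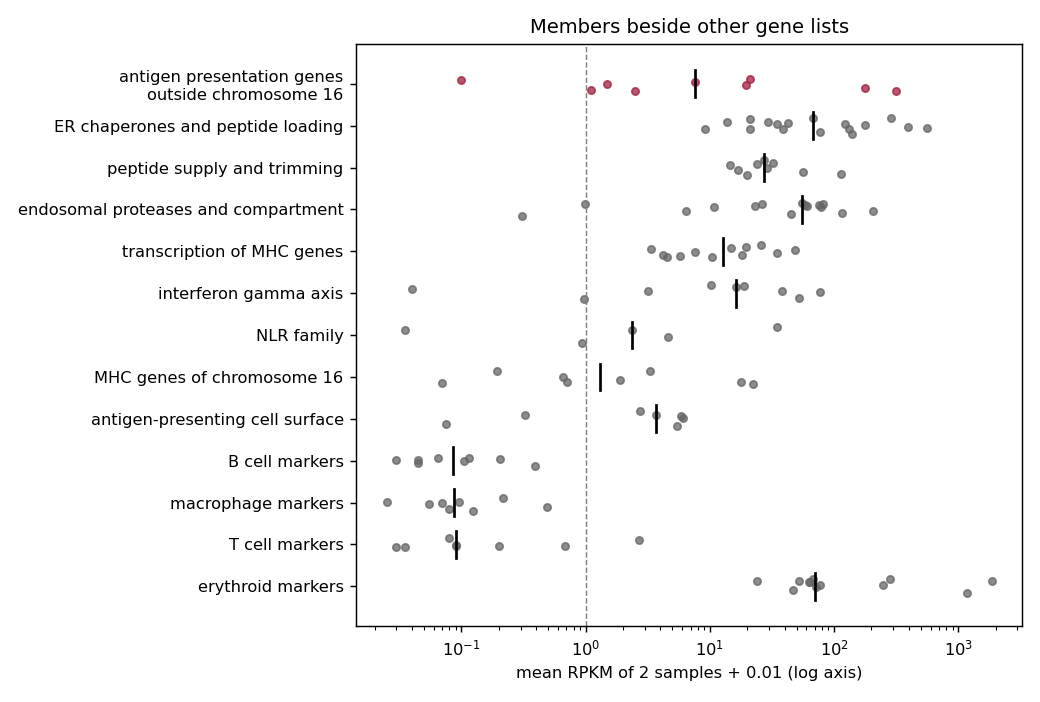
Mean RPKM of the 2 samples plus 0.01 (log axis) for each measured gene, with the 9 antigen presentation genes in the top row and 12 other lists below; black bars are medians and the dashed line marks an RPKM of 1. The 9 genes span from the level of B cell and macrophage markers, where CIITA lies, to the upper part of the erythroid markers, where B2M lies.

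The 9 genes lie on 8 chromosomes, and no other gene model overlapped any of them. Of the genes whose start lay within 100 kb of a member, 57 of 104 were detected, or 54.8%, near the 52.6% of all analysed genes. PDIA3 was higher than all 20 other genes in its window. Directly beside it, SERINC4 ended 155 bp from the end of PDIA3, on the opposite strand, with 4 and 3 reads. CKMT1A, on the other side, had 4 and 2 reads. Next outward, C15ORF63 stood at 15.89 and 24.10 RPKM and PPIP5K1 at 3.20 and 4.58. B2M and PATL2 start 1618 bp apart on opposite strands, and B2M was 242 times PATL2 in replicate 1 and 221 times in replicate 2. SNX1, beyond PATL2, stood at 46.74 and 44.69, and CPEB1, on the other side of B2M, at 11.02 and 13.84.

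NLRC5 lay between CETP at 0.11 and 0.31 RPKM and CPNE2 at 0.53 and 0.69, on the same strand as both. The next genes outward were high, with HERPUD1, a gene of the endoplasmic reticulum stress response, at 115.55 and 168.80 and FAM192A at 146.92 and 131.81. ERAP1 faced CAST, the calpain inhibitor gene, at 16.29 and 18.30, with 3.28 kb between their ends. On its other side FBN2 stood at 0.04 and 0.05. Next outward, SLC12A2 stood at 21.57 and 24.73 and PCSK1 at 0.20 and 0.03. TAPBPL lay between FBXO40 at 0.23 and 0.29 and SCNN1A at 0.05 and 0.04, and it was the higher one in both samples. KPNA1, next beyond FBXO40, stood at 24.14 and 27.24, and VAMP1, beyond SCNN1A, at 1.22 and 0.90.

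II lay 2718 bp downstream of RPS14, a ribosomal protein gene on the same strand at 661.31 and 646.61 RPKM. The reads of II amounted to 0.123% of those of RPS14 in replicate 1 and 0.133% in replicate 2. Whether any reads of II came from transcripts that run on from RPS14 was not tested. On the other side TCOF1 ended 380 bp away on the opposite strand, at 20.63 and 26.37. NDST1, beyond RPS14, stood at 0.71 and 1.22, and ARSI, beyond TCOF1, at 0.09 and 0.08. CTSS ended 700 bp from the end of SSR2, a translocon-associated gene on the opposite strand at 149.38 and 150.91. On the other side of CTSS, ARNT stood at 19.68 and 26.25 and SETDB1, on a model of 644 bp, at 15.02 and 21.04. Another model with the symbol SETDB1, further out, stood at 0.49 and 0.57. IFI30 faced LSM4 at 48.19 and 43.02, with 2.50 kb between their ends. PGPEP1, beyond LSM4, stood at 1.62 and 2.95, and on the other side PIK3R2 stood at 6.06 and 9.12 and MAST3 at 0.21 and 0.31.

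CIITA was near 0, and of the 6 other genes that start within 100 kb of it 3 were detected, with a median of 0.748 RPKM over the 6. CLEC16A averaged 25.3 ± 0.4525 RPKM, 13.1 kb away, and NUBP1 stood at 63.39 and 67.76, 40.3 kb away. On the side of NUBP1, FAM18A lay nearer to CIITA and stood at 0.02 and 0.15. DEXI, between CLEC16A and CIITA, stood at 1.29 and 1.53 on a model of 215 bp with 11 and 10 reads. SOCS1, which dampens interferon signalling, lay 127 kb from CIITA at 42.32 and 33.89. Other genes of the lists that lay within 500 kb of a member were RFX5, 104.7 kb from CTSS, CTSH, 182 kb from PDIA3 at 44.33 and 45.09, and CSF1R and CANX, 127 and 398 kb from II. CD86 and CD4 lay 265 and 342 kb from TAPBPL.

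**Figure D4:**
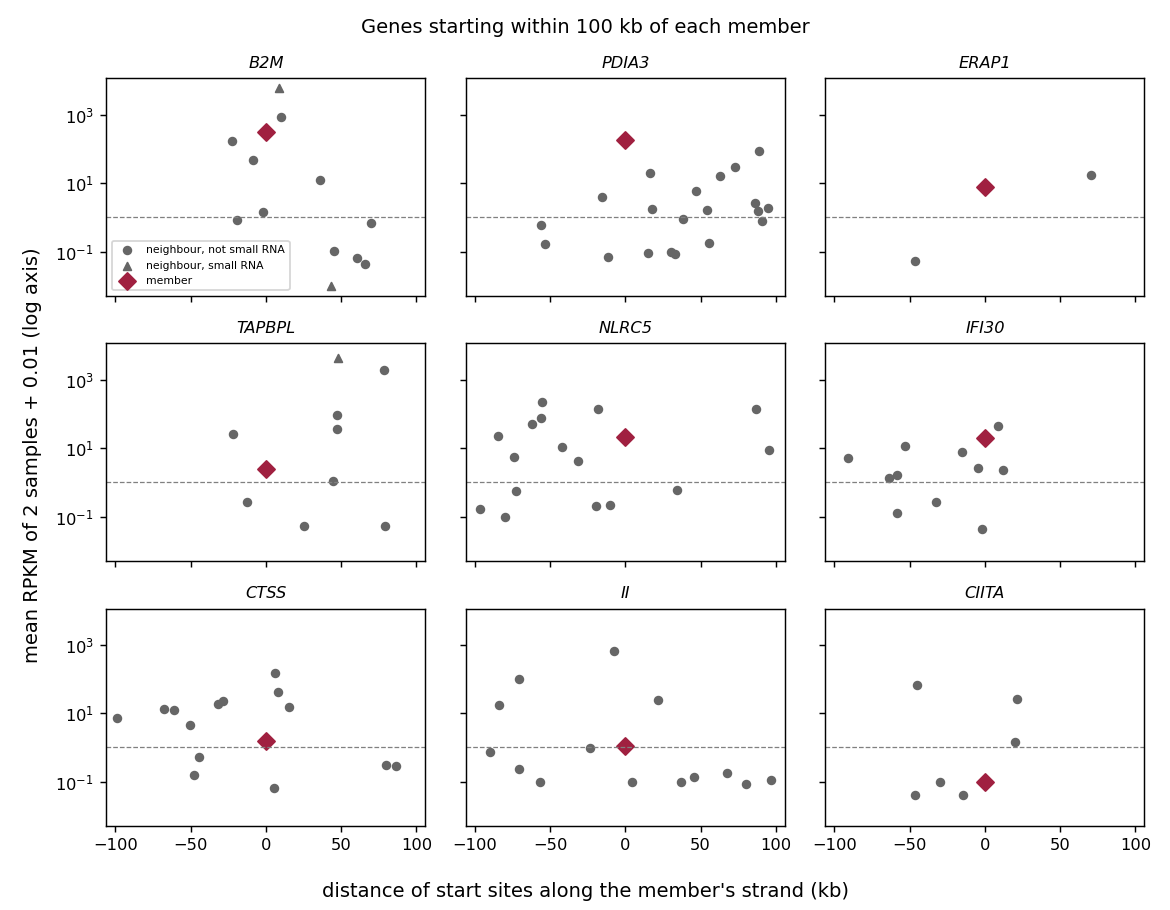
Mean RPKM of the 2 samples plus 0.01 (log axis) of the genes that start within 100 kb of each of the 9 genes, by distance in kb along the member's strand; diamonds are the members, circles other genes and triangles small RNAs, and the dashed line marks an RPKM of 1. PDIA3 is the highest gene of its window, while II and CIITA lie under nearby genes such as RPS14 and NUBP1.

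The difference between the samples was small for most of the 9 genes. CTSS was 1.57-fold higher in replicate 1, and it was the 1 gene of the 8 with at least 10 mean reads that was at least 1.5-fold higher there, as were 3.39% of all genes with that many reads. In the other direction 0 of the 8 passed 1.5-fold, against 11.2% of all such genes. On the log2 scale CTSS stood at 0.65 for replicate 1 over replicate 2. Of named genes with 0.5 to 2 times its reads, 3.38% lay above it. NLRC5 stood at -0.44, and of the genes of like reads 2.77% lay below it, or 4.10% of those that were also of like length. B2M and PDIA3 stood at -0.12 each, TAPBPL at -0.37, IFI30 at -0.28, II at -0.09 and ERAP1 at 0.02. CIITA, under 10 mean reads with 5 and 8, stood furthest from 0 at -1.0, and its counting intervals overlapped. These differences have 1 sample on each side and carry no p-value.

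**Figure D5:**
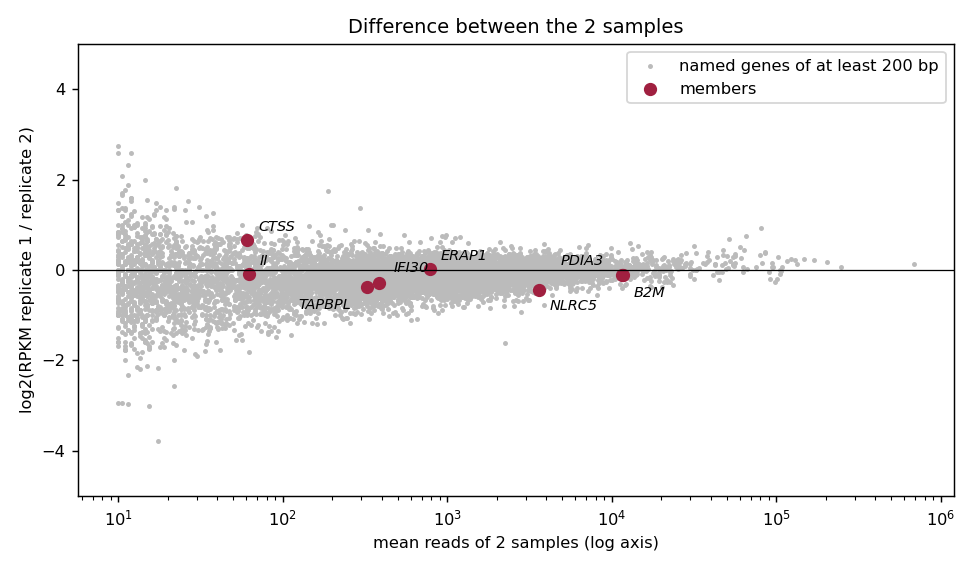
Log2 of RPKM in replicate 1 over replicate 2 against mean reads (log axis) for named genes of at least 200 bp with at least 10 mean reads (grey) and the 8 members that reach 10 (red). CTSS lies at 0.65 and NLRC5 at -0.44, both toward the edge of genes with like reads, and the other 6 lie between -0.37 and 0.02.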

How the data were processed

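Per the labels' protocols, DNase-treated total RNA was depleted of ribosomal RNA, cut with RNase III and made into SOLiD libraries, pooled 2 to a lane. The authors deposited 1 table that pairs, for each gene model, the count of reads with the RPKM in either sample. Neither the labels nor the file header name an aligner, a counting rule, the use of strand or a genome build. RPKM divides by model length and by a total in which small RNAs take a large share, which lowers the RPKM of all other genes. Of 17934 genes, 1470 without a symbol or reads were left out.

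The deposited RPKM values were used as they stand. Counts served for exact Poisson 95% intervals and for exact binomial intervals of ratios. These cover counting error only and take reads as independent. PCR copies are not independent molecules, so the intervals may be too narrow even for that. No test between groups was possible with 1 group. Recovery of set replicate differences and coverage of the Poisson intervals were tested on simulated Poisson counts, which hold no spread beyond counting error. The ratios and their intervals, the medians, the counts of detected genes and the TMM scaling were not simulated. Alternatives were TPM, other library totals, other thresholds, another pseudocount, TMM and median-of-ratios scaling, and leaving out each replicate. Members and gene lists were chosen with earlier results of these data known. Genes named were the members, the 2 named genes on each side of each member, the 2 next above and below it in level, and of each list the 4 highest members and the first 2 under 1 RPKM. Other list genes named were chosen after their values were seen. Of repeated symbols among members and list genes the longest model was taken. Some list genes were not analysed here, and some genes that the lists or this rule took are not reported here. Measured list genes outside this rule enter the counts and medians, and not all are named. Promoter motifs and sequences were not used here. Python 3.11.15 with pandas 2.3.3, numpy 2.4.6, scipy 1.17.1 and matplotlib 3.10.9 was used, and edgeR 4.0.16 gave the TMM factors.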

Additional observations from a re-analysis of the deposited data

How the results depend on the processing

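The count of detected genes was 8 of 9 at an RPKM of at least 1, at 0.5, without small RNA and mitochondrial reads, and without either replicate (8 to 8), and 6 of the 7 genes left without ERAP1 and TAPBPL, a set added after the data were seen. It was 5 at an RPKM of at least 5 and 5 at a TPM of at least 1. The share of all analysed genes at the same settings was 52.6% as reported, 56.4% at an RPKM of at least 0.5, 39.5% at 5, 44.3% at a TPM of at least 1 and 55.2% without small RNA and mitochondrial reads. The median of the members stood above that of the background genes in every setting run. For the 9 genes against all analysed genes it stood above by 1.61 as reported. The difference for the 9 genes was 2.0 with a pseudocount of 0.1, 1.10 in TPM and 1.75 without small RNA and mitochondrial reads. It was 1.51 to 1.71 leaving out each replicate, and 0.66 against named genes of at least 200 bp. A required mean RPKM of at least 0.1 removed CIITA as well as background genes, and the 8 members left gave 0.76. The 7 genes without ERAP1 and TAPBPL gave 2.87.

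Leaving out each replicate gave 1.80 to 1.80 for B2M over PDIA3, 200.3 to 295 for NLRC5 over CIITA, 9.83 to 18.8 for IFI30 over CTSS and 285 to 290.5 for B2M over II. As reads not divided by length these ratios were 1.02, 586, 7.09 and 188. TMM and median of ratios shifted replicate 1 over replicate 2 up across all genes, by 0.10 and 0.09 on the log2 scale. That left B2M and PDIA3 at -0.01 each under TMM and NLRC5 at -0.34. Under TMM the difference grew for CTSS, from 0.65 to 0.75, and for ERAP1, from 0.02 to 0.13. TAPBPL moved from -0.37 to -0.26 and IFI30 from -0.28 to -0.18. II, at -0.09 as reported, came to 0.02 under TMM and 0.01 under median of ratios. No paired analysis was possible because the series holds 1 group. Depth limits CIITA, II and CTSS most, since they rest on 5 to 82 reads.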

Other observations

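With 1 group of 2 samples there is no pattern across conditions, so the genes most like each member were taken as the nearest in mean RPKM over the 2 samples among named genes of at least 200 bp. B2M, at 318, lay between CYCS at 318.4 and PRDX3 at 319 above it and CCT6 at 313 and UCHL3 at 312.8 below it. PDIA3, at 176, lay between CYP51A1 at 176.8 and HSP90B1 at 178 above it and EIF2S1 at 175.6 and SLC7A5 at 175.5 below it. NLRC5 lay beside RAD18, EFCAB1, NDUFAF6 and STRADA, at 20.9 each. IFI30 lay beside FAM48A, LSM14B, C12ORF50 and MKKS, at 19.7 each. ERAP1 lay beside COG8, TSTD2, MCM8 and TUBA4A, at 7.59 to 7.61, and TAPBPL beside KLHL25, RALGPS1, C20ORF174 and GPR92, at 2.49 to 2.50. CTSS lay beside CKB, CAMKK1, LIMD2 and TTLL1, at 1.48 each, and II beside DNAI1, ATP10B, AXIN2 and SLC12A8, at 1.10 to 1.11. Some of these share their mean with named genes not listed, as LIMD2 and TTLL1 do in a tie of 8, so the choice among ties is arbitrary. CIITA shared its mean of 0.09 with 121 other genes, so no gene was nearest to it.

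A gene without a symbol beside B2M, ENSGALG00000002157, was named after its values were seen. It stood at 844.43 RPKM in replicate 1 and 886.14 in replicate 2, above B2M in both. The small nucleolar RNA SNORA71, at 5282.97 and 6349.08, lies within its span on the same strand. No source used here says how reads were split between them.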
